A study of Bos taurus with 15 samples.

Results

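INSL3, LHCGR, RXFP2, PRLR and PTGDS are 5 genes of hormone signalling around the Leydig cell, the steroid-producing cell that lies between the seminiferous tubules of the testis. They were taken as every non-control probe that the array's files name as 1 of these genes by symbol, accession, gene number or description. This gave 6 probes, 1 for each gene and a second for LHCGR, out of 21475 probes and 14907 named genes on the array. All 6 probes were among the 18492 probes, and all 5 genes among the 13293 genes, that were bright enough to be tested. The probe of RXFP2 carried a placeholder name and was identified through its gene number, and the other 5 probes through an accession.

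Total RNA came from testis tissue collected from 15 cattle at slaughter and was hybridised to single-colour Agilent oligonucleotide arrays, 1 animal to each array. The treated group was 8 animals given prednisolone, a synthetic glucocorticoid, by mouth in a daily dose of 30 mg per head over 35 days, and the control group was 7 untreated animals. The comparison asks which testis transcripts differ between treated and untreated cattle. The animals, numbered 25 to 32 in the prednisolone group and 17, 18 and 20 to 24 in the control group, were taken as the replicates, so the p-values measure the spread between these samples. 

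Luteinising hormone from the pituitary binds LHCGR, a receptor on Leydig cells that raises cyclic AMP inside the cell and drives androgen synthesis. INSL3 is a small peptide of the insulin and relaxin family that Leydig cells secrete, and RXFP2 is its receptor, which is needed for the descent of the testis in the fetus and is also found on germ cells and Leydig cells in the adult. PRLR is the receptor of prolactin, a cytokine-type receptor that acts through JAK2 and STAT5 and is known in rodents to modulate LH receptors on Leydig cells. PTGDS makes prostaglandin D2, is also secreted as a carrier of lipophilic molecules, and is abundant in the testis and epididymis of the bull.

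A level is the log2 processed signal of a probe relative to the 75th percentile of all probes on the same array, so that 0 is the brightness of that percentile. The share of probes well above background was 82.2% to 89.9% on 14 arrays, whose 75th percentile was a signal of 1220 to 2780. The array of prednisolone 30 was dim, with a share of 36.4% and a 75th percentile at a signal of 49.8. Its levels correlated with the other arrays at 0.705 to 0.736, while the other 14 arrays correlated with each other at 0.962 to 0.993. Its scanner values, centred per gene, correlated with its column of the authors' deposited table at 0.0131, against 0.846 to 0.962 on the other arrays, so it is not known which source measured that animal. The main differences between the groups are therefore given with and without prednisolone 30, and other results name the arrays used. Markers of Sertoli cells (10 of 10) and germ cells (14 of 15) with a probe were bright enough to be tested, and so were 7 of 8 Leydig cell markers, the exception being SCARB1, which was well above background on 0 arrays.

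None of the 5 genes passed the test between prednisolone and control testis. The means of all 5 were higher in the prednisolone group by 0.25 to 0.63 on the log2 scale over 15 arrays and by 0.03 to 0.21 without prednisolone 30. Over all genes tested, 52.0% were higher in the prednisolone group over 15 arrays and 52.6% over 14, and the median difference was 0.01 in both. At an adjusted p under 0.05 limma called 0% of the 13293 genes. At an unadjusted p under 0.05 it called 2.43% over 15 arrays and 4.17% over 14, and none of the 5 genes was among them in either. On prednisolone 30, 5 of the 5 genes lay above all 14 other arrays, as did 35.3% of all genes, 89.0% of the genes with a mean level under -4 and 34.1% of the genes with a mean level over 6. Without prednisolone 30 the groups overlapped for 5 of the 5 genes, and they did not overlap for 0.0677% of all genes tested. In bulk tissue, fewer cells of a type and less RNA per cell cannot be told apart.

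**Figure D1:**
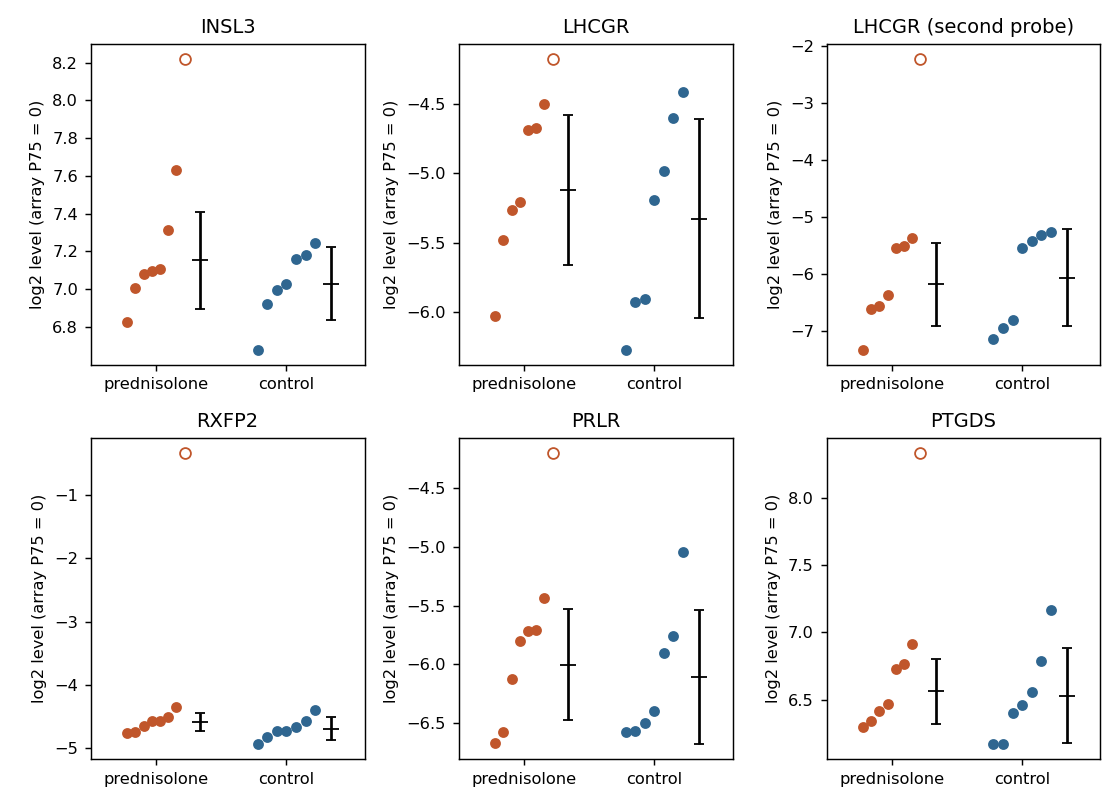
The log2 level of each probe in every animal (y axis, 0 is the 75th percentile of the array), with prednisolone to the left of control. Filled points are single animals sorted by level, the open circle is prednisolone 30, and the bars are the mean ± SD of 7 animals each (prednisolone 30 left out). The filled points of the groups overlap for every probe, and the open circle is the highest value in all 6 panels.

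INSL3, the Leydig cell peptide, was well above background on all 15 arrays and saturated on 0. Its level in the prednisolone group had a lowest value of 6.83, a median of 7.10 and a highest of 8.22, against a lowest of 6.68, a median of 7.03 and a highest of 7.24 in controls. The highest value was that of prednisolone 30, and the groups overlapped with or without it. Among the other 7 treated animals, prednisolone 29 at 7.63 and prednisolone 31 at 7.31 lay above every control, while prednisolone 27 at 6.83 was below all controls but control 18 at 6.68. INSL3 averaged 7.29 ± 0.45 in prednisolone (SD, n = 8) and 7.03 ± 0.19 in control testis (SD, n = 7). The difference was 0.26 with an SE of 0.19 and a 95% interval of -0.15 to 0.66 (limma adjusted p = 0.883, exact permutation p = 0.194). Without prednisolone 30 it was 0.12 with an SE of 0.13 (limma adjusted p = 0.980, exact permutation p = 0.346), a 1.09-fold higher level with a 95% interval of 0.897 to 1.32-fold. This 0.12 was smaller than the SD between animals in prednisolone (0.26, n = 7) and in control testis (0.19, n = 7).

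LHCGR, the LH receptor, was measured by a brighter and a dimmer probe. On the brighter probe the lowest, median and highest levels were -6.02, -4.94 and -4.17 in prednisolone and -6.27, -5.19 and -4.41 in control testis. Both groups spread widely on it, from animals near -6 to animals near -4.5, and without prednisolone 30 the treated animals lay inside the range of the controls. The brighter probe averaged -5.00 ± 0.60 in prednisolone (SD, n = 8) and -5.33 ± 0.72 in control animals (SD, n = 7). The difference was 0.33 with an SE of 0.32 and a 95% interval of -0.35 to 1.01 (limma adjusted p = 0.883, exact permutation p = 0.343). Without prednisolone 30, the 1 array where this probe was not well above background, the difference was 0.21 with an SE of 0.30 (limma adjusted p = 0.981, exact permutation p = 0.533). That is 1.16-fold, with a 95% interval of 0.739 to 1.81-fold.

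The dimmer LHCGR probe was well above background on 6 of 8 prednisolone and 6 of 7 control arrays. Its level averaged -5.69 ± 1.56 in prednisolone (SD, n = 8) and -6.06 ± 0.85 in control testis (SD, n = 7), a difference of 0.38 with an SE of 0.60 (limma adjusted p = 0.893). Prednisolone 30 stood at -2.22, far from the next treated animal at -5.36. Without it the prednisolone mean was -6.18 ± 0.73 (SD, n = 7) and the difference was -0.12 with an SE of 0.38 (limma adjusted p = 0.993), so that the sign of this probe's difference rested on that array.

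RXFP2, the INSL3 receptor, was well above background on all 15 arrays. Its lowest, median and highest levels were -4.75, -4.57 and -0.33 in prednisolone and -4.94, -4.72 and -4.39 in control testis. The -0.33 was prednisolone 30, and the other 7 treated animals ended at -4.34. RXFP2 averaged -4.06 ± 1.51 with prednisolone 30 (SD, n = 8) and -4.59 ± 0.14 without it (SD, n = 7), against -4.69 ± 0.18 in controls (SD, n = 7). The difference over 15 arrays was 0.63 with an SE of 0.53 and a 95% interval of -0.49 to 1.75 (limma adjusted p = 0.883, exact permutation p = 0.265). Over 14 arrays it was 0.10 with an SE of 0.11 (limma adjusted p = 0.980, exact permutation p = 0.267), or 1.07-fold with a 95% interval of 0.913 to 1.26-fold. The 1.55-fold of the 15 arrays rested on 1 array, on which the 2 spots of the probe gave signals of 8.49 and 184, or levels of -2.55 and 1.89.

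PRLR, the prolactin receptor, was well above background on 6 of 8 prednisolone arrays and 6 of 7 control arrays, the exceptions being prednisolone 29, prednisolone 30 and control 24. Its lowest, median and highest levels were -6.67, -5.76 and -4.20 in prednisolone and -6.58, -6.40 and -5.04 in control testis. Controls were mostly low, with control 23 above the rest of its group, and the treated animals were spread over the same range. PRLR averaged -5.78 ± 0.77 in prednisolone (SD, n = 8) and -6.11 ± 0.57 in control animals (SD, n = 7). The difference was 0.33 with an SE of 0.33 and a 95% interval of -0.38 to 1.04 (limma adjusted p = 0.883, exact permutation p = 0.386). Without prednisolone 30 it was 0.10 with an SE of 0.26 (limma adjusted p = 0.991, exact permutation p = 0.715), or 1.07-fold with a 95% interval of 0.738 to 1.57-fold. Prednisolone 27 at -6.67 lay below every control, and prednisolone 29 at -6.58 was level with the lowest of them.

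PTGDS, the prostaglandin D synthase, was well above background on all 15 arrays and saturated on 0. Its lowest, median and highest levels were 6.29, 6.60 and 8.34 in prednisolone and 6.17, 6.46 and 7.17 in control testis. The highest values were prednisolone 30 in the treated group and control 17 among the controls, and without prednisolone 30 the treated animals ended at 6.91 and lay inside the range of the controls. PTGDS averaged 6.78 ± 0.67 in prednisolone (SD, n = 8) and 6.53 ± 0.36 in control testis (SD, n = 7). The difference was 0.25 with an SE of 0.27 and a 95% interval of -0.32 to 0.83 (limma adjusted p = 0.883, exact permutation p = 0.463). Without prednisolone 30 it was 0.03 with an SE of 0.16 (limma adjusted p = 0.997, exact permutation p = 0.849), or 1.02-fold with a 95% interval of 0.805 to 1.30-fold. The exact tests are 2-sided and were run for the 5 genes; their p-values are unadjusted.

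**Figure D2:**
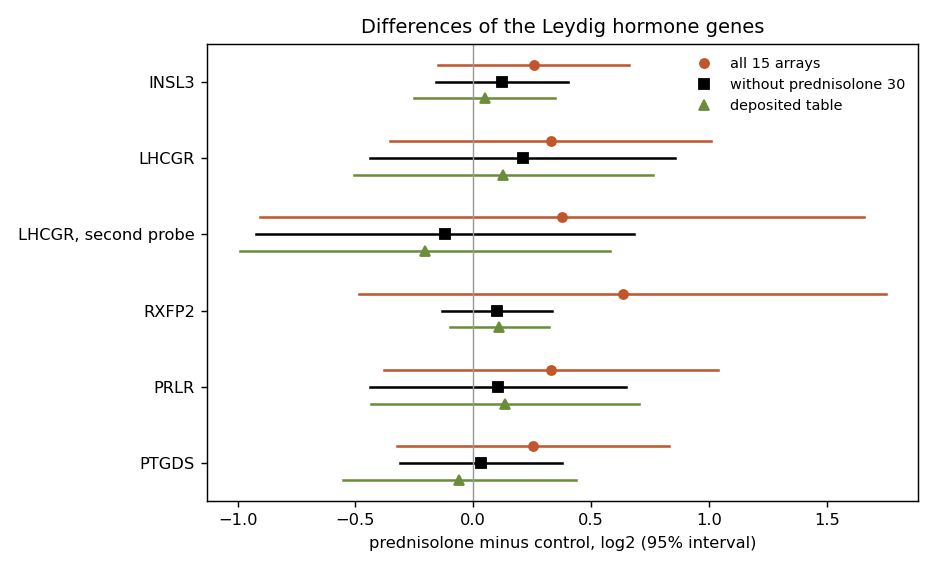
Prednisolone minus control on the log2 scale (x axis) for the 6 probes, with 95% intervals from limma. Circles are all 15 arrays, squares leave out prednisolone 30 and triangles use the authors' deposited table; every interval contains 0, and the widest is that of the dimmer LHCGR probe over 15 arrays, from -0.91 to 1.66.

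The authors' deposited table, which holds other values for prednisolone 30, gave differences of smaller size than the 15 scanner arrays for all 5 genes, though not than the 14 arrays for RXFP2, PRLR and PTGDS. Its limma differences were 0.05 for INSL3, 0.13 for LHCGR, 0.11 for RXFP2, 0.13 for PRLR and -0.06 for PTGDS. In it prednisolone 30 had log2 intensities of 17.90 for INSL3, 4.99 for PRLR and 17.17 for PTGDS, each within the range of the other treated animals, and of 6.58 for RXFP2, above the 6.37 that was the highest of them. The deposited values of LHCGR on its brighter probe were blank for prednisolone 30 and control 20, so its 0.13 does not include prednisolone 30.

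Slide and scan day did not fall evenly on the groups. Scan day 1 held 6 prednisolone and 3 control arrays on slides 1, 4 and 7, and each of the other 4 scan days held 1 group. Within scan day 1 and without prednisolone 30, the limma differences were 0.22 for INSL3, 0.31 for LHCGR, 0.04 for RXFP2, 0.13 for PRLR and 0.07 for PTGDS. Their SEs were 0.14 to 0.42. These arrays are part of the full set, so a shared sign is not a separate result. On slide 1, with 2 arrays of each group, INSL3 differed by 0.17, LHCGR by -0.35, RXFP2 by 0.03, PRLR by 0.70 and PTGDS by -0.10. The PRLR interval on slide 1 was 0.11 to 1.28 (limma adjusted p = 0.963). On slide 4, with 1 control, prednisolone 29 and prednisolone 30, INSL3 differed by 0.77, LHCGR by 1.56, RXFP2 by 2.21, PRLR by -0.35 and PTGDS by 1.46. Only slides 1 and 4 held both groups, so with slide as a block the difference comes from the arrays of these slides. With slide as a block over 15 arrays the differences were 0.41 for INSL3, 0.41 for LHCGR, 0.91 for RXFP2, 0.28 for PRLR and 0.52 for PTGDS, and none passed (limma adjusted p = 0.913 to 0.919). Without prednisolone 30 the blocked differences were 0.27 for INSL3, 0.10 for LHCGR, 0.054 for RXFP2, -0.047 for PRLR and 0.18 for PTGDS (limma adjusted p = 0.818 to 0.988).

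Each array carried 2 spots of every probe, so the spread between animals can be set beside the error of a single spot. Over the 14 arrays, LHCGR on its brighter probe had an SD of 0.635 between animals of a group and 0.245 between the spots of an array. PRLR had 0.525 between animals and 0.214 between spots. These 2 receptors varied between animals 2.59 and 2.46 times as much as between spots.

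INSL3 was the tightest of the bright probes, with an SD of 0.226 between animals and 0.145 between spots, a ratio of 1.55. For RXFP2 the animals' SD of 0.161 was below the spots' SD of 0.197, and for PTGDS the animals' 0.304 was below the spots' 0.329. An animal's value is a mean of 2 spots, and the spot error of such a mean was 0.139 for RXFP2 and 0.232 for PTGDS. The SD between animals contains this spot error, so its larger size does not show that the animals differed in these genes. INSL3 and PTGDS were so bright that 14 of 15 arrays read them from the scan at low sensitivity, with saturation set at signals of 583232 to 599774. The INSL3 signal was 225009 to 328962 on the 7 brighter prednisolone arrays, 14868 on prednisolone 30, and 185000 to 327509 on control arrays. On prednisolone 30 the spots of INSL3 gave signals of 8310 and 26600 and those of PTGDS 5790 and 44900. The PTGDS spots had levels of 6.86 and 9.82, so the high PTGDS level of this array rested on 1 spot.

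**Figure D3:**
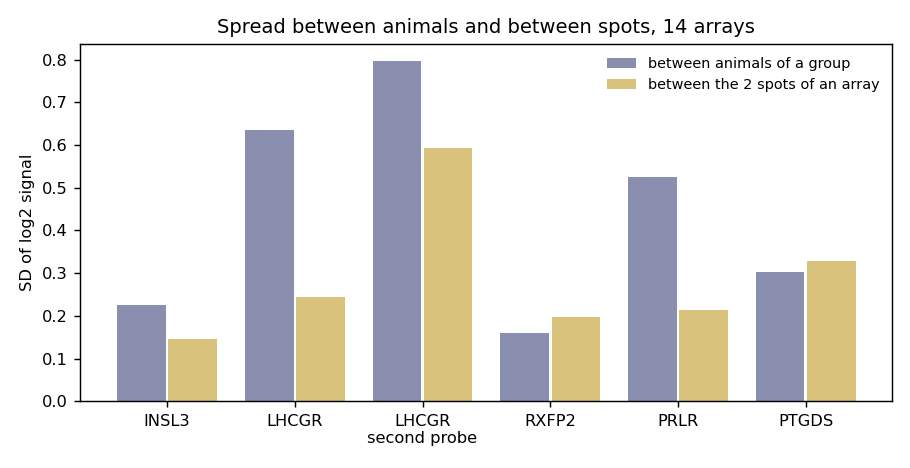
SD of log2 signal (y axis) for the 6 probes over 14 arrays, between animals of a group (left bar) and between the 2 spots of an array (right bar). The brighter LHCGR probe and PRLR have bars of 0.635 and 0.525 between animals against 0.245 and 0.214 between spots, and the RXFP2 and PTGDS bars are lower between animals than between spots.

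The same animals were high on both LHCGR probes, although a gap between high and low animals was seen only on the dimmer one. On the dimmer probe 7 animals lay between -5.25 and -5.54 and the other 7 between -6.36 and -7.33, with no animal between them. The same 7 animals were the highest 7 on the brighter probe, where the seventh and eighth values, -5.19 and -5.20, touched. They were prednisolone 27, 28 and 31 and control 17, 21, 22 and 24, which is 3 treated animals and 4 controls on 6 slides.

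Since the animals fell into separate clusters on the dimmer probe, no correlation of the probes over all 14 is given. This probe was noisy, with an SD of 0.592 between the spots of an array and a spot error of 0.418 for their mean. Its largest gap between spots was 1.53. Control 23 and prednisolone 29, both in the lower cluster, were not well above background on it. With 7 animals each and this spot error, order inside the clusters cannot be compared. The clusters also ran with the scan day: 2 of 8 arrays of scan day 1 were in the higher cluster, against 5 of 6 arrays of the other days. On the brighter probe the arrays of scan day 1 had levels of -6.27 to -4.50 with a median of -5.37, and those of the other days -5.90 to -4.41 with a median of -4.84. The part of scan day in this split was not tested.

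**Figure D4:**
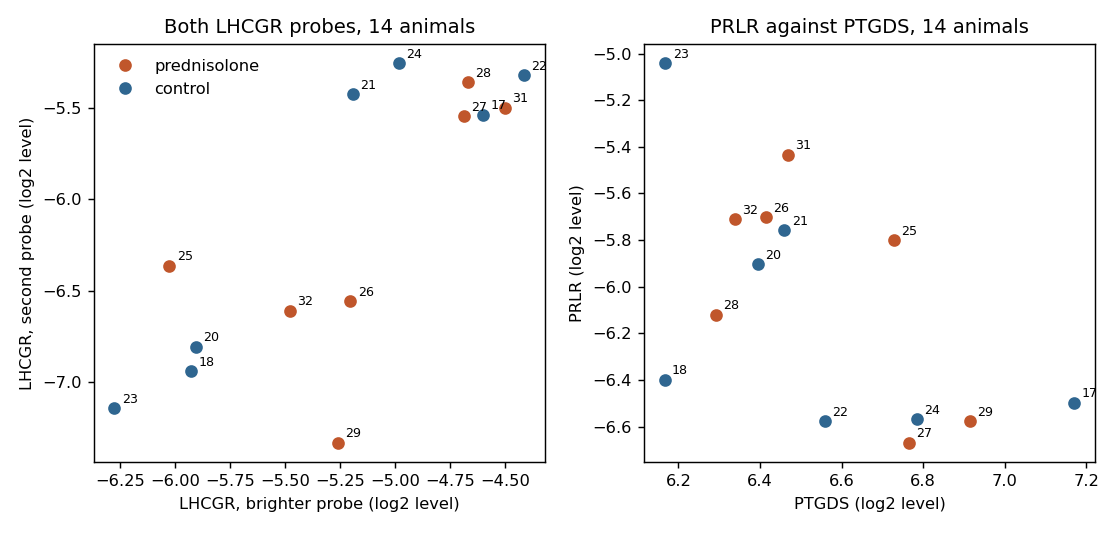
Left, the log2 levels of the dimmer LHCGR probe (y axis) against the brighter one (x axis); right, PRLR (y axis) against PTGDS (x axis), over 14 animals labelled by number. On the left, 7 animals lie at -5.54 or above on the y axis and 7 at -6.36 or below; on the right, control 23 holds the highest PRLR level and control 17 the highest PTGDS level.

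The 5 genes were correlated with each other over the 14 animals, in 10 pairs, and 0 pairs passed after Benjamini-Hochberg adjustment. The smallest p was that of PRLR with PTGDS, with r = -0.59 (permutation p = 0.0265, adjusted p = 0.265) and rho = -0.57 (permutation p = 0.0344, adjusted p = 0.344). The negative sign held within prednisolone animals (r = -0.64), within controls (r = -0.58) and within scan day 1 (r = -0.61 over 8 arrays). Without prednisolone 27 and control 23, the 2 animals farthest from the PRLR median, r was -0.46. In the deposited table r was -0.70 over 15 arrays (permutation adjusted p = 0.0171), and over 15 arrays of scanner values, which include prednisolone 30, it was 0.38.

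No relation of INSL3 with its own receptor or with the LH receptor was detectable across animals. Its r was -0.05 with RXFP2 (rho = -0.12, permutation p = 0.857 and 0.695) and 0.18 with LHCGR (rho = 0.17, permutation p = 0.542 and 0.561). RXFP2 had an SD of 0.161 between animals and 0.197 between spots, which limits what its correlations can show. INSL3 and PTGDS had r = 0.37 (rho = 0.32, permutation p = 0.193 and 0.266), and -0.09 without control 18 and prednisolone 29. The deposited table gave this pair r = 0.87 over 15 arrays (permutation adjusted p = 0.0005). LHCGR and PTGDS had r = 0.44 over 14 animals (rho = 0.45, permutation p = 0.116 and 0.109), with -0.25 within prednisolone animals and 0.79 within controls.

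The genes whose levels ran most alike were picked as the 3 highest Pearson's r among 13288 other genes over the 14 arrays, and the values are a description. For INSL3 these were RPS28 at r = 0.83 and RPS21 at 0.82, which encode proteins of the small ribosomal subunit, and MOGS at 0.75, a glucosidase that trims glycans in the endoplasmic reticulum. For LHCGR they were DDIT4L at 0.86, an inhibitor of mTOR signalling, the olfactory receptor gene OR2G28 at 0.84, and GHR at 0.79, the growth hormone receptor. For RXFP2 they were GGNBP1 at 0.86, which encodes a gametogenetin-binding protein, GPR84 at 0.83, a receptor of medium-chain fatty acids, and TFPI at 0.81, an inhibitor of coagulation. PRLR ran most like CORIN at 0.85, a membrane serine protease, NRXN3 at 0.84, a neuronal adhesion protein, and PPP2R2B at 0.81, a regulatory subunit of protein phosphatase 2A. PTGDS had the highest values of the 5, with ACP5 at 0.91, the tartrate-resistant acid phosphatase of osteoclasts and macrophages, FZD2 at 0.90, a Wnt receptor, and FERMT3 at 0.90, an integrin activator of blood cells. With prednisolone 30 added, r ranged from 0.76 to 0.87 for the 3 genes of LHCGR and from 0.90 to 0.99 for those of RXFP2. For INSL3 it became 0.49 with RPS28, -0.50 with RPS21 and -0.61 with MOGS. For PRLR it was 0.90 with CORIN, 0.91 with NRXN3 and 0.05 with PPP2R2B, and for PTGDS it was 0.31 with ACP5, 0.75 with FZD2 and 0.63 with FERMT3.

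Levels of the 5 genes were set beside the mean level of 9 marker lists and 2 measures of array brightness, in 55 relations over 14 animals, and 0 passed after adjustment. PTGDS had r = 0.75 with the macrophage list (rho = 0.71, permutation adjusted p = 0.0638 and 0.169) and -0.74 with the germ cell list (rho = -0.63, permutation adjusted p = 0.0638 and 0.235). Within prednisolone animals these were 0.20 and -0.35, within controls 0.97 and -0.95, and without control 17 they were 0.53 and -0.56. PTGDS also had r = 0.70 with the peritubular smooth muscle list and 0.62 with endothelium (permutation adjusted p = 0.0907 and 0.216). It had 0.58 with epididymis and rete ducts and 0.55 with Sertoli cells (permutation adjusted p = 0.266 and 0.325). Without control 17 these were 0.45, 0.21, 0.11 and 0.52, in that order. LHCGR had r = 0.59 with the macrophage list (rho = 0.71, permutation adjusted p = 0.216 and 0.169). INSL3 had r = -0.47 with the log2 75th percentile of the array and -0.48 with the share of probes well above background. Their permutation adjusted p was 0.395 and 0.384. Within prednisolone animals the r values were -0.74 and -0.71, and within controls -0.49 and -0.54. The part of array brightness in the INSL3 level was not tested. The macrophage markers, all 10 of which were tested, summed to 22.9 to 29.2 times the 75th percentile in 7 prednisolone animals, 14.4 in prednisolone 30 and 21.8 to 35.9 in controls. Control 17, highest in PTGDS, was also the highest animal for the macrophage and peritubular smooth muscle lists. Its epididymis and rete duct list had a mean of 1.01, against at most 0.08 in the other controls, and 10 of the 13 genes of that list with a probe were tested, AQP9 being well above background on 0 arrays. The part of these markers in the PTGDS level was not tested.

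Prednisolone 32 had the lowest level of all 15 animals for 3 of 4 steroid-producing genes examined, and INSL3 and LHCGR were not at the bottom of their range in it. STAR, which moves cholesterol into mitochondria, had a level of -0.25, against at least 1.34 in the other 14 animals. CYP11A1, the first enzyme of steroid synthesis, was at -1.08 against at least -0.06, and CYP17A1, which makes androgen precursors, at 0.66 against at least 2.41. HSD3B1, which oxidises the steroid precursors, was at -0.26 in prednisolone 32 and lowest at -0.28 in prednisolone 30. These genes were named by a rule that takes the markers with the largest departure of a single animal. They therefore do not stand for all 7 Leydig markers tested, and the rest are not described here. In the same animal INSL3 was at 7.01 and LHCGR at -5.48, the tenth highest of 14 animals for both. Over 14 animals the Leydig marker mean had r = -0.10 with INSL3 and 0.35 with LHCGR, and neither passed. The Leydig markers summed to 10.6 to 43.8 times the 75th percentile in 7 prednisolone animals, 21.9 in prednisolone 30 and 18.01 to 26.7 in controls.

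Genes of the surrounding pathways were counted from 5 lists, and 0 genes of any list passed with limma, with or without prednisolone 30. The lists are described by their counts and medians beside a median of 0.01 over all genes tested, and the named genes are from the 3 of each list with the smallest unadjusted p. Every named gene had a limma adjusted p of 0.883 over 15 arrays and 0.980 over 14. The counts of treated animals on 1 side of the control mean include prednisolone 30. They follow from the choice of genes by p and are only a description.

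Of the LH receptor and cyclic AMP list, 44 of 50 genes with a probe were tested, 24 higher and 20 lower in prednisolone, with a median of 0.05, and 28 higher and 16 lower without prednisolone 30, with a median of 0.04. GNAI1, an inhibitory G protein subunit, averaged -1.57 ± 0.36 in prednisolone (SD, n = 8) and -1.07 ± 0.23 in control testis (SD, n = 7). Its groups overlapped, with 8 of 8 treated animals under the control mean, and the difference was -0.50 over 15 arrays and -0.38 over 14. CRTC1, a coactivator of CREB, had a difference of 0.37 with and without prednisolone 30, with 8 of 8 treated animals above the control mean. CREBBP, another coactivator of CREB, had -0.33 over 15 arrays and -0.20 over 14.

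The relaxin-like list had 4 tested genes of 5 with a probe, and 4 of 4 were higher in prednisolone, with a median of 0.60 over 15 arrays and 0.13 over 14. INSL5, a gut peptide of the same family, differed by 0.56, C1QTNF8, reported in humans as a ligand of the relaxin receptor, by 0.65, and RXFP4, the INSL5 receptor, by 0.81. Without prednisolone 30 these were 0.25, 0.17 and 0.10. RXFP4 shows the weight of that array, with a level of -0.33 on prednisolone 30 and -6.28 to -5.84 in the other treated animals.

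Of the prolactin and growth hormone receptor list, 29 of 30 genes with a probe were tested, 14 higher and 15 lower in both sets of arrays, with a median of -0.03 without prednisolone 30. CISH, a suppressor of cytokine signalling that STAT5 induces, averaged -3.65 ± 0.42 in prednisolone (SD, n = 8) and -3.13 ± 0.24 in control testis (SD, n = 7). Its difference was -0.52 over 15 arrays and -0.45 over 14, with 7 of 8 treated animals below the control mean. IGF1, a growth factor that growth hormone induces, differed by -0.57 over 15 arrays and -0.46 over 14, and control 17 was its highest animal at 0.72. SHC1, an adaptor of receptor kinases, differed by -0.33 and -0.20.

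The prostaglandin list had 25 tested genes of 28 with a probe, 13 higher and 12 lower over 15 arrays and 10 higher and 15 lower over 14, with medians of 0.03 and -0.03. PTGES, which makes prostaglandin E2, differed by 1.04 over 15 arrays and 0.56 over 14, and prednisolone 30 was at -0.10 beside -4.81 to -2.86 in the other treated animals. SLCO2A1, a prostaglandin transporter, differed by 0.50 and 0.32, and PTGER1, a prostaglandin E2 receptor, by 0.42 and 0.28.

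Among Leydig cell regulators, 38 of 39 genes with a probe were tested, 19 higher and 19 lower over 15 arrays and 16 higher and 22 lower over 14, with a median of -0.01 in both. NR5A2, a nuclear receptor that activates steroidogenic promoters, differed by -0.42 and -0.33, and PDGFA, a growth factor for Leydig cell precursors, by -0.51 and -0.36. For both genes, 7 of 8 treated animals were below the control mean.

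**Figure D5:**
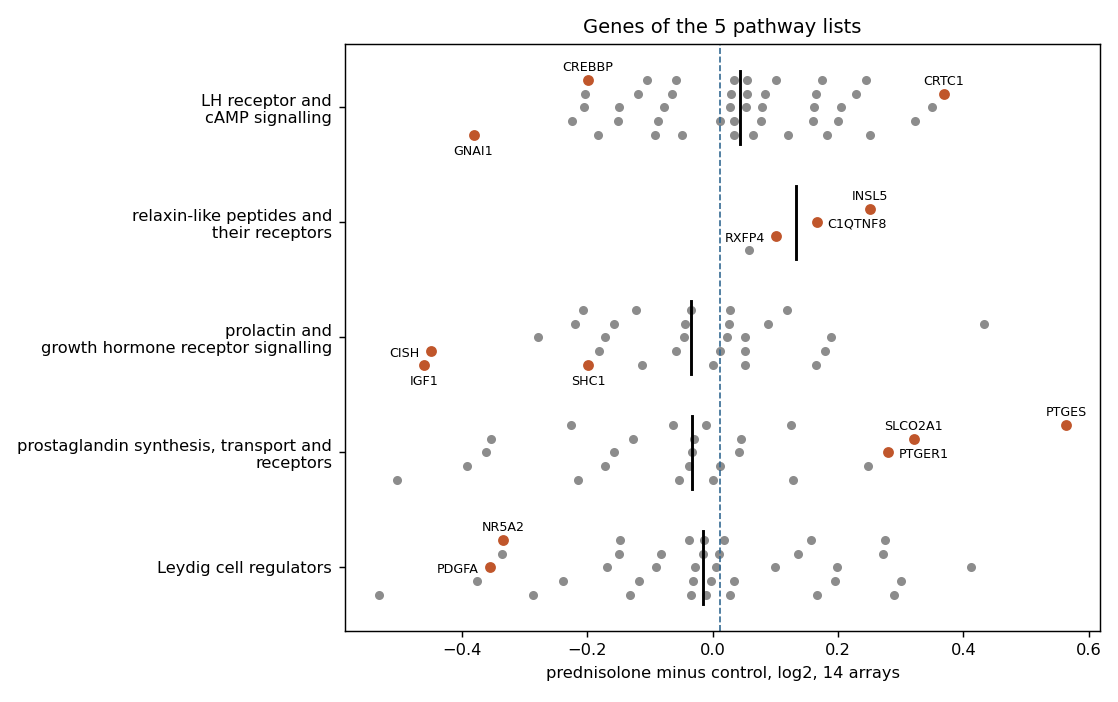
Prednisolone minus control on the log2 scale (x axis) over 14 arrays for every tested gene of the 5 lists (rows). Each point is a gene, the genes named in the text are coloured and labelled, the short vertical line is the list's median and the dashed line the median of all genes tested, 0.01. The list medians lie between -0.03 and 0.13.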

How the data were processed

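The scanner files deposited for the 15 arrays hold intensity per spot, extracted with Feature Extraction 9.5.1.1 per the file headers. The processed intensity, by the design text, is background-subtracted and detrended and joins scans at 2 sensitivities. A further deposited table gives intensity on a common scale by a method the sources do not state; the submitters' processing notes list R 2.11.1. No coordinates are printed, since no source used here gives the build of the array design.

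Control spots and spots flagged as outliers were left out and spots of a probe averaged. The log2 of the deposited processed intensity was taken minus the log2 of each array's 75th percentile. A probe was tested if at least 7 arrays of the 15, whatever their group, had it well above background. Of 21475 probes, 16158 were given a gene symbol through the files and the RefSeq table of assembly ARS-UCD2.0. Where a gene had several probes, the one with the highest mean stood for it. The groups' comparison used limma 3.58.1 (R 4.3.3), with Benjamini-Hochberg adjustment over all tested probes and a threshold of 0.05; the fit was tested on simulated data. Exact and 100000-resample permutation tests were written in Python 3.11.15, with ranks from scipy 1.17.1, and figures were made with matplotlib 3.10.9. Named are the 5 genes, the 3 genes of each list with the smallest unadjusted p, the 3 genes most alike to each, and marker genes where a marker sum is reported; 1 gene that this rule takes is not reported here. The genes and lists were chosen with earlier results of these data known. Alternatives covered arrays left out, scaling, background correction, the deposited table, filters, array weights, slide and scan day. The number of arrays limits the precision.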

Additional observations from a re-analysis of the deposited data

Results flagged for a closer look

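The 5 genes' 6 probes and the means of 9 marker lists were examined for a single animal far from the rest of its group, by the ratio of its gap to the group's range, in 30 groups. Chance gives such a flag in about 1 of 20 groups, or 1.5 of these 30, and 9 were found, all in prednisolone 30 or control 17. Prednisolone 30, the dim array, stood apart for the dimmer LHCGR probe, at -2.22 with the nearest treated animal at -5.36, for RXFP2, at -0.33 with the nearest at -4.34, and for PTGDS, at 8.34 with the nearest at 6.91. It also stood apart for the mean of the endothelium list, at 1.15 with the nearest at 0.23, of the epididymis and rete duct list, at 1.17 with the nearest at 0.26, and of the blood list, at 0.84 with the nearest at 0.26.

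Control 17 stood apart for the mean of the peritubular smooth muscle list, at 1.26 with the nearest control at 0.26, of the endothelium list, at 1.005 with the nearest at 0.05, and of the epididymis and rete duct list, at 1.01 with the nearest at 0.08. Its INSL3 and LHCGR levels were 7.18 and -4.60, inside the range of the other animals, and its PTGDS level of 7.17 was the highest of the 14 arrays without prednisolone 30.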

How the results depend on the processing

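Over 34 to 37 settings for each probe, no adjusted p of a member gene fell below 0.818, and the count of genes past the threshold was 0 in all of them. Without 1 animal at a time, the difference was 0.12 to 0.32 for INSL3, 0.17 to 0.48 for LHCGR, 0.10 to 0.73 for RXFP2, 0.10 to 0.51 for PRLR, 0.03 to 0.36 for PTGDS and -0.12 to 0.61 for the dimmer LHCGR probe; the count of genes, and that of each list, stayed at 0. The sign turned for LHCGR with quantile normalization (-0.26), normexp (-0.072) and slide 1 (-0.35), for PRLR with quantile normalization (-0.25) and slide 4 (-0.35), and for PTGDS in the deposited table (-0.059, also in the exact test) and on slide 1 (-0.10). Settings chosen after seeing the data turned PRLR with slide as a block without prednisolone 30 (-0.047) and PTGDS without prednisolone 30 in the deposited table (-0.026) and with quantile normalization (-0.033). INSL3 and RXFP2 kept a positive sign in every setting that gave a value, 0.02 to 0.77 and 0.03 to 2.21. The dimmer LHCGR probe turned without prednisolone 30 (-0.12), also without control 17 (-0.033), in the deposited table (-0.20, and -0.27 without prednisolone 30), with array weights (-0.38), on slide 1 (-0.22), and without prednisolone 30 with slide as a block (-0.21) and quantile normalization (-0.12). Over all 15 arrays the correlations turned to 0.79 for INSL3 with RXFP2, 0.39 for LHCGR with RXFP2, 0.84 for RXFP2 with PTGDS and 0.38 for PRLR with PTGDS. In the deposited table INSL3 with PRLR turned to -0.42, and INSL3 with PTGDS (0.87) and PRLR with PTGDS (-0.70) passed the threshold. The cause was not tested. LHCGR and PRLR gave no value when probes had to be well above background on all arrays, and PRLR none when 7 arrays of 1 group were needed. No paired analysis was possible because the groups share no animal numbers. The dimmer LHCGR probe and PRLR were well above background on 12 of 15 arrays, which limits what they can show.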
